A study of Mus musculus with 26 samples.

Results

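Late neutrophil granule and S100 genes were described across 8 groups of mouse blood-forming cells. The set holds 10 of the 19937 genes on the array: Ltf, Lcn2, Camp, Ngp, Chil3, Cd177, Mmp8, Mmp9, S100a8 and S100a9. A gene was taken when the array annotation gave a probe set that symbol alone, and each of the 10 had 1 such probe set. All samples were of strain C57BL/6. Long-term hematopoietic stem cells (LT-HSC, n = 4) and granulocyte macrophage progenitors (GMP, n = 4) were wild-type cells that had been sorted from bone marrow by flow cytometry. The other arrays held lines immortalized in vitro from LT-HSC or from GMP and taken from liquid medium, with or without doxycycline (dox). Lines of LT-HSC origin gave 2 arrays in dox at 48 h, 3 in dox at 72 h, and 3 at each of these times in dox-free medium. Lines of GMP origin, all taken at 48 h, gave 4 arrays in dox and 3 in dox-free medium. The study's title names MLL-AF9, a leukaemogenic fusion of the genes KMT2A and MLLT3, and dox is widely used to switch tetracycline-controlled transgenes. The sources used here give neither the transgene and its promoter nor the event from which the hours count. The labels give a line name for each array of a line but do not say which arrays are separate cultures. GMP-derived line B6-1 was measured only with dox.

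Neutrophils fill their granules in sequence as they mature. Primary (azurophil) granules with myeloperoxidase and elastase form at the promyelocyte stage, and secondary (specific) and tertiary (gelatinase) granules form later, under control of the transcription factor C/EBP epsilon among others. Ltf (lactoferrin, an iron-binding protein), Lcn2 (lipocalin 2, which captures bacterial siderophores), Camp (the cathelicidin antimicrobial peptide) and Ngp (neutrophilic granule protein, a cathelicidin relative) are specific granule genes. Mmp8 (neutrophil collagenase) is stored with them, and Mmp9 (gelatinase B) marks the tertiary granules. Chil3 is a chitinase-like lectin of myeloid cells, and Cd177 is a membrane protein of neutrophils that binds PECAM1. S100a8 and S100a9 are calcium-binding proteins that pair as calprotectin, bind zinc and manganese, and fill the cytosol of neutrophils and monocytes.

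Promoters of the members are shown because many of these genes moved together and C/EBP factors are known regulators of specific granule genes. RefSeq promoter windows on build GRCm38.p6, from 250 bases before to 50 bases after a gene's start, were given for 9 of the 10 members, all but Mmp9. They were searched on both strands for TTNNGCAA, a core form of the C/EBP site whose reverse complement is TTGCNNAA. It was present in 5 of the 9 windows, and 10.8% of all 32851 promoter windows of that length held it. The windows with a match are printed 5′ to 3′ on the strand of the gene, with the matches in capitals. They are Ltf (chr9:111019042-111019341, plus strand), Lcn2 (chr2:32387690-32387989, minus strand), Ngp (chr9:110419558-110419857, plus strand), Mmp8 (chr9:7558179-7558478, plus strand) and S100a9 (chr3:90695672-90695971, minus strand).
Ltf: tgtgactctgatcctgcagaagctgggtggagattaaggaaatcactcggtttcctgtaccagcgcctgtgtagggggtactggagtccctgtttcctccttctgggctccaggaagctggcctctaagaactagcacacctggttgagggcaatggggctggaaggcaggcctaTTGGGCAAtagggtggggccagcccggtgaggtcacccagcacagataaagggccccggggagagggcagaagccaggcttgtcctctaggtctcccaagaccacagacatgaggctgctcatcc
Lcn2: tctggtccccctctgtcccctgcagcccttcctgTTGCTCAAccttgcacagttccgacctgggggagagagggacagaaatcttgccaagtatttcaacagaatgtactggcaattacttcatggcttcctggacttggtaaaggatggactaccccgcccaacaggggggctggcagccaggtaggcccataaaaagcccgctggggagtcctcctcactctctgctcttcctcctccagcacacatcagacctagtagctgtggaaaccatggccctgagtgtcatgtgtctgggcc
Ngp: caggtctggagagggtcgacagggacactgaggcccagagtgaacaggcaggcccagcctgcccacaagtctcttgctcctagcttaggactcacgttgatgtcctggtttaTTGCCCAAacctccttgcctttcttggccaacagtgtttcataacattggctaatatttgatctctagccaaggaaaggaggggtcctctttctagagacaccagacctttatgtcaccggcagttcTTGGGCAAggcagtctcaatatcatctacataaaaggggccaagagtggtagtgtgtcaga
Mmp8: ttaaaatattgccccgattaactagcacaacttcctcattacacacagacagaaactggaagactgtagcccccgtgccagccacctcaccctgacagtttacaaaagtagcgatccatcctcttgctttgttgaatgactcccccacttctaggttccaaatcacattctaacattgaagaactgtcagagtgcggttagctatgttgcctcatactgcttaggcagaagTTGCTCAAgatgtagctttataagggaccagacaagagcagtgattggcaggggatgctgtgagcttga
S100a9: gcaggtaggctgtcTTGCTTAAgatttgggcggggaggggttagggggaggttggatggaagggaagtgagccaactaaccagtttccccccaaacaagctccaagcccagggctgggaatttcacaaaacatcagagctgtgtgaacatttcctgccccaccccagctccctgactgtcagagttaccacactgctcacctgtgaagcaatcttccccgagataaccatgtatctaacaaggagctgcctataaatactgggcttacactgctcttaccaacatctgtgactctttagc
The match began 75 bases before the start in Ltf, 216 in Lcn2, 19 in Mmp8 and 236 in S100a9, and Ngp held one at 138 and another at 11 bases. GAGGAAG, a core form of the PU.1 site (reverse complement CTTCCTC), which does not overlap the C/EBP form in these windows, was present in 3 of the 9 windows (Lcn2, Mmp8 and S100a8) and in 13.6% of all windows. The windows of Camp, Chil3 and Cd177 held neither form. A match is a description of the sequence and was not tied to any change below.

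Arrays were alike in scale, with medians between 5.81 and 5.91 log2, and replicates of a group correlated over probe sets with r between 0.979 and 0.991. Sorted cells carried the markers of their labels. Of 8 measured LT-HSC markers, 7 lay above the array median in every sorted LT-HSC array against 2 in every sorted GMP array, and all 10 GMP markers did so in sorted GMP. In sorted LT-HSC arrays 5 to 8 of the 10 GMP markers lay above the median as well, so that count separates the 2 groups less sharply. LT-HSC-derived lines did not show the LT-HSC pattern: 1 to 3 of the 8 LT-HSC markers and all 10 GMP markers lay above the array median in them. Sorted GMP replicate 2 stood apart in the genes described here, with all 10 above the group mean by 0.12 to 2.37 log2. In the LT-HSC-derived lines, line B6-1 was the lowest of the 3 lines for 9 of the 10 genes without dox at 48 h, 10 of 10 without dox at 72 h and 9 of 10 with dox at 72 h. The labels call replicates biological but name no animals, so p-values between the sorted groups reflect only how these samples spread, which may be technical.

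The 10 genes were highest in cultures without dox. GMP-derived lines without dox had the highest group mean for 8 genes, and the 72 h group of LT-HSC-derived lines without dox had it for Mmp8 and Mmp9. The lowest mean was in sorted LT-HSC for 5 genes (Lcn2, Chil3, Cd177, Mmp8 and S100a8), in sorted GMP for 3 (Camp, Ngp and S100a9) and in GMP-derived lines with dox for Ltf and Mmp9. Between the highest and the lowest group mean lay 5.58 log2 for Mmp8, 5.54 for Ngp, 5.13 for Chil3, 4.81 for Ltf, 4.74 for Camp, 4.21 for Lcn2, 4.08 for S100a8, 3.37 for S100a9, 1.95 for Cd177 and 0.74 for Mmp9. Most neighbours in this order overlapped: of the 7 neighbouring pairs of groups, the arrays overlapped in 4 for Ngp, in 5 for Lcn2, Camp, Chil3, S100a8 and S100a9, and in 6 for Ltf, Cd177, Mmp8 and Mmp9. Mmp9 lay below the array median on 25 of the 26 arrays, and Ltf on 10 of 26. Signal over background was not analysed here, so a difference from a group with such dim signals may be understated. In bulk samples like these, fewer cells of a type and less RNA per cell cannot be told apart.

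**Figure D1:**
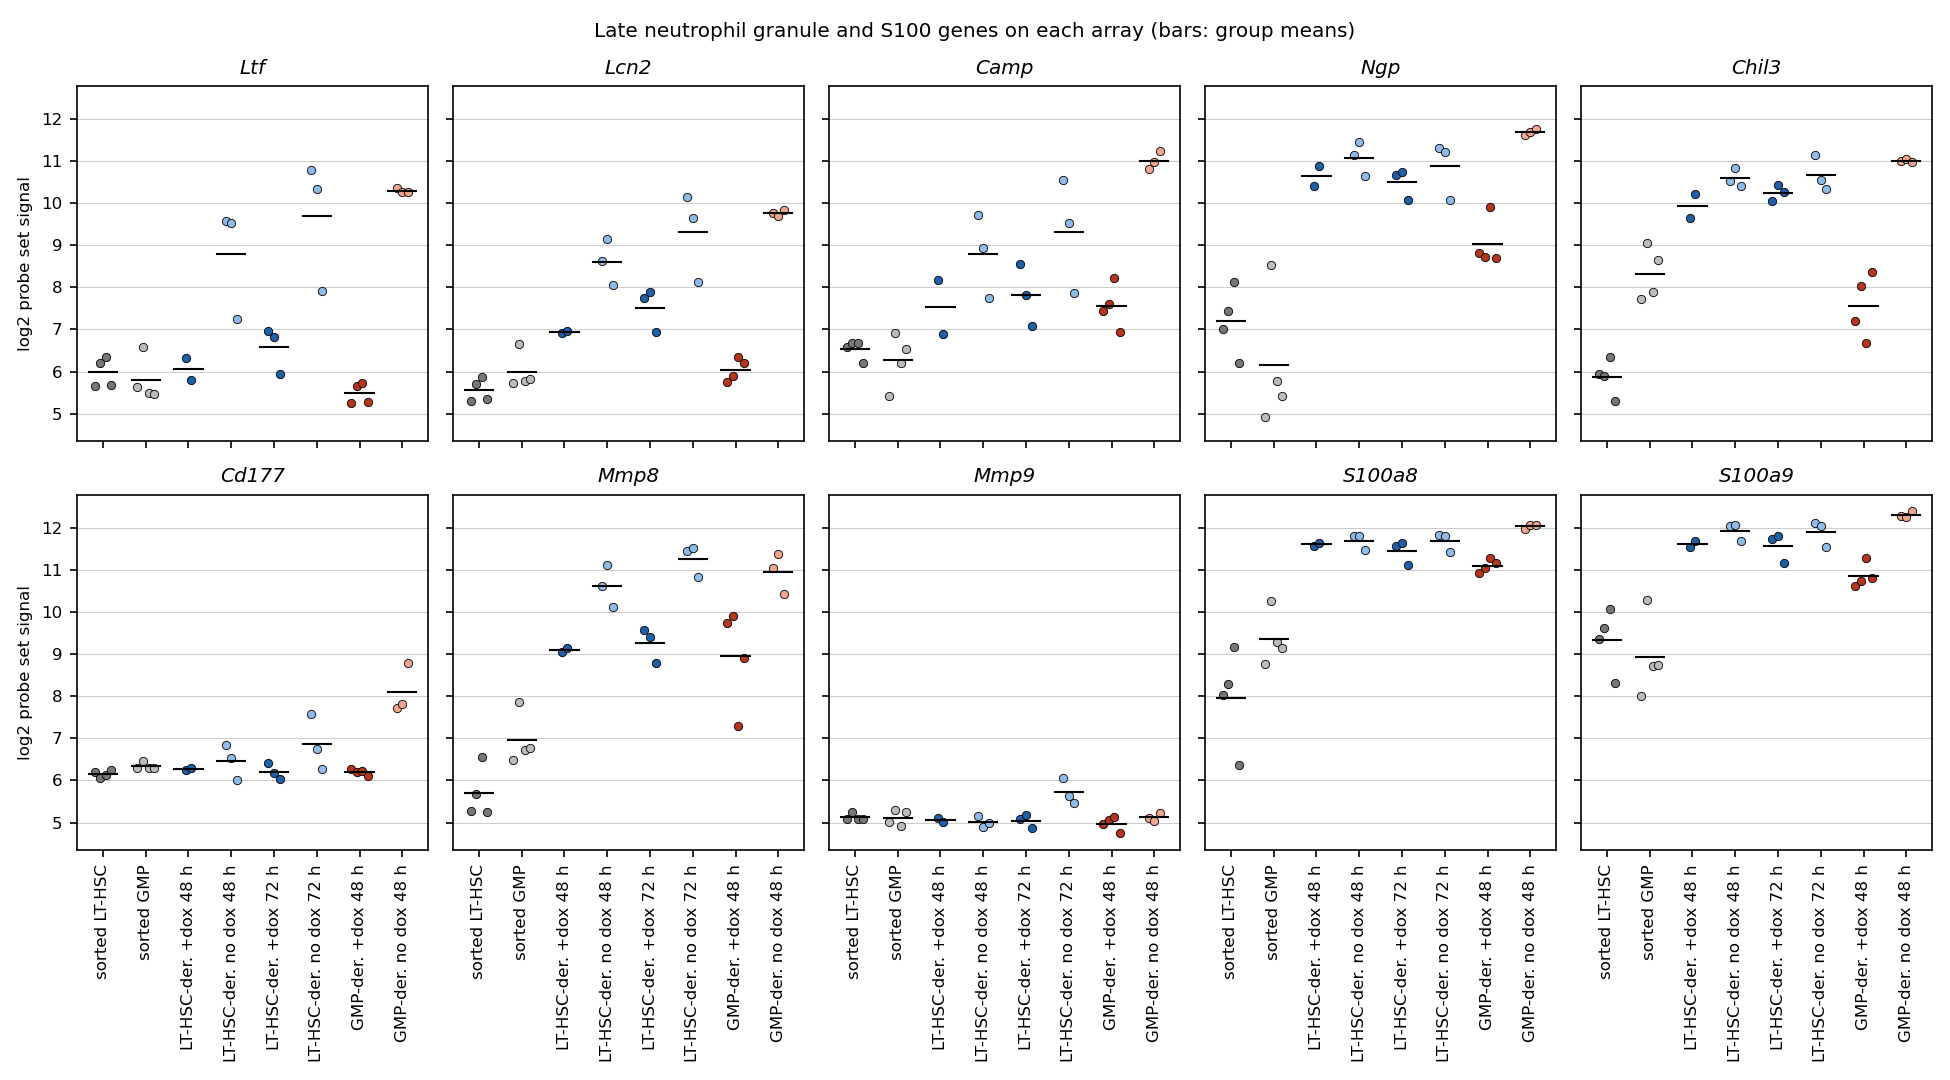
Log2 probe set signal (y axis) of each of the 10 genes on every array, by group (x axis); points are arrays, short bars are group means, and lines with dox are drawn darker than those without. GMP-derived lines without dox lie at 10.26 to 10.36 for Ltf and at 5.26 to 5.73 with dox, whereas Mmp9 lies near 5 in all groups but the 72 h group of LT-HSC-derived lines without dox.

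The sorted cells show where the genes stood in unimmortalized LT-HSC and GMP. Each difference comes from 1 limma model of the 8 group means over all 26 arrays, and a call needs an adjusted p (Benjamini-Hochberg, over all 19937 genes) under 0.05. Chil3, Mmp8 and S100a8 were higher in GMP, so 3 of 10 members rose, while 16.8% of all genes were called higher. No member was called lower, and the median difference of the 10 was 0.08 against -0.01 over all genes. Chil3 rose by 2.45 ± 0.30 log2 (SE; adjusted p = 4.65e-07), a 5.47-fold difference, from 5.95, 5.90, 6.35 and 5.31 in LT-HSC replicates 1 to 4 to 7.72, 9.05, 7.89 and 8.65 in GMP. All 4 GMP arrays lay above all LT-HSC arrays. S100a8 rose by 1.41 ± 0.35 (adjusted p = 0.00262), from 8.03, 8.29, 9.16 and 6.37 to 8.78, 10.26, 9.29 and 9.16, and the groups overlapped. Its partner S100a9 was not called at -0.40 ± 0.34 (adjusted p = 0.436), with 9.37, 9.61, 10.08 and 8.32 in LT-HSC and 8.01, 10.29, 8.73 and 8.74 in GMP. Whether the 2 subunits of calprotectin differed from each other was not tested.

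The collagenase gene Mmp8 rose by 1.27 ± 0.42 (adjusted p = 0.0209), from 5.27, 5.68, 6.56 and 5.25 in LT-HSC to 6.48, 7.86, 6.72 and 6.78 in GMP, with LT-HSC replicate 3 above GMP replicate 1. Ngp was not called at -1.04 ± 0.52 (adjusted p = 0.145). Its values were 7.01, 7.44, 8.13 and 6.21 in LT-HSC and 4.92, 8.53, 5.76 and 5.42 in GMP, so 3 of 4 GMP arrays lay below every LT-HSC array and replicate 2 above them all. Without GMP replicate 2, Ngp fell by 1.83 (adjusted p = 0.000341) and S100a9 fell by 0.85 (adjusted p = 0.0203), and Mmp8 was no longer called at 0.97 (adjusted p = 0.101). Mmp8 also lost its call without LT-HSC replicate 1 (adjusted p = 0.0674) or 4 (adjusted p = 0.0693). On GMP replicate 2, 17 of 22 surface genes of mature neutrophils lay above the group mean (list mean 0.21 above it), 21 of 29 other granule and secreted neutrophil genes did (0.12) and 9 of 12 primary granule genes did (0.04). Markers of other cells lay above it too: 4 of 6 of eosinophils (0.27), 11 of 14 of monocytes and macrophages (0.10) and 5 of 8 of lymphocytes (0.04). Of mast cell and basophil markers 2 of 9 did (-0.08), and of erythroid and megakaryocyte markers 2 of 6 (-0.05). The part of these lists in the members' high values there was not tested. Ltf, Lcn2, Camp, Cd177 and Mmp9 were not called, at -0.18, 0.44, -0.27, 0.18 and -0.01. Monocyte and macrophage markers were higher in GMP (10 of 14 rose), with list means of 7.84 to 8.02 on GMP and 5.48 to 5.81 on LT-HSC arrays. Of mast cell and basophil markers 5 of 9 were higher and 1 was lower, and of eosinophil markers 5 of 6 were higher. The part of these lists was not tested.

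**Figure D2:**
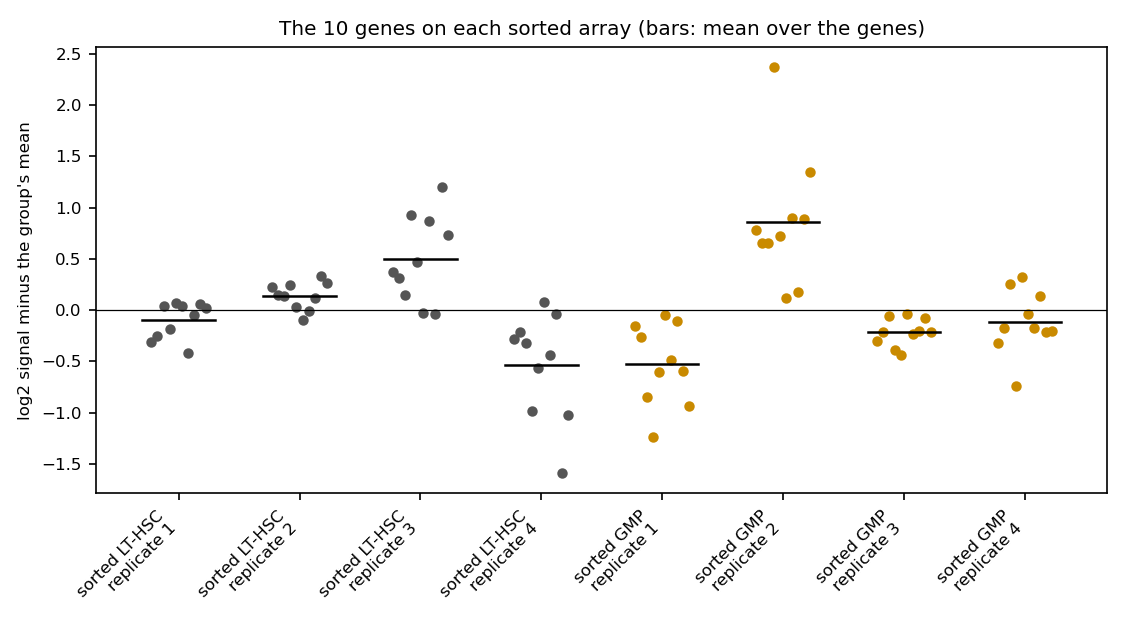
Log2 signal minus the group's own mean (y axis) of the 10 genes on each of the 8 sorted arrays (x axis); points are genes and bars are means over the genes. On sorted GMP replicate 2 all 10 genes lie above 0, with a mean of 0.86, and on sorted LT-HSC replicate 4 the mean is -0.54.

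The comparison of GMP-derived lines with and without dox at 48 h asked what dox does in lines of this origin. All 10 genes had a lower mean with dox, and 8 of 10 fell, where 5.18% of all genes were called lower. The median difference of the 10 was -2.32 log2 against 0.01 over all genes. The falls ran from 28.1-fold for Ltf to 2.74-fold for S100a9, and S100a8 and Mmp9 were not called. For 9 genes, all but Mmp9, every array with dox lay below every array without it. How many of all genes did so was not counted, so this describes the 9 genes and does not set them apart from other genes. Markers of monocytes and macrophages were lower with dox too: 8 of 14 fell, none rose, and the mean over the list was 6.60 to 7.64 on arrays with dox and 7.56 to 8.51 without. No marker of eosinophils (6 measured), mast cells and basophils (9), erythroid cells and megakaryocytes (6) or lymphocytes (8) was called. The monocyte list's part in the members' differences was not tested.

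Among the specific granule genes, Ltf gave 10.36, 10.27 and 10.26 without dox in lines B6-2, B6-3 and F6-6, and 5.26, 5.65, 5.73 and 5.28 with dox in B6-2, B6-3, F6-6 and B6-1. It fell by 4.81 ± 0.51 log2 (adjusted p = 1.21e-06), the lowest difference of all 19937 genes. Lcn2 gave 9.78, 9.69 and 9.83 without dox and 5.76, 5.89, 6.34 and 6.19 with dox. It fell by 3.73 ± 0.33 (adjusted p = 1.11e-07), or 13.2-fold. For both genes the arrays without dox lay within 0.14 log2 of each other, and those with dox reached the level of sorted GMP (means 5.80 for Ltf and 6.00 for Lcn2). Camp fell by 3.46 ± 0.50 (adjusted p = 4.72e-05), from 10.81, 10.98 and 11.23 to 7.44, 7.60, 8.23 and 6.93. Ngp fell by 2.65 ± 0.56 (adjusted p = 0.00222), from 11.62, 11.69 and 11.76 to 8.82, 8.73, 9.91 and 8.69, and its array of line F6-6 with dox stood above the other lines. Ltf, Lcn2, Camp and Chil3 were among the 10 genes with the lowest differences in this comparison.

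The lectin gene Chil3 fell by 3.45 ± 0.33 (adjusted p = 2.42e-07), from between 10.98 and 11.05 in the 3 lines without dox to 7.19, 8.03, 6.68 and 8.36 with dox in the order of lines above. Chil3 has a close paralog, Chil4, whose probe set fell by 0.57 ± 0.10 (adjusted p = 0.000512) at means of 3.18 with dox and 3.75 without, and shared hybridisation of the 2 probe sets was not tested. Cd177 fell by 1.90 ± 0.23 (adjusted p = 5.84e-06), from 7.72, 7.82 and 8.78 to 6.26, 6.20, 6.23 and 6.12. Its arrays with dox differed by at most 0.15 log2, and line F6-6 was highest without dox. The values with dox lay near those in sorted LT-HSC (6.06 to 6.24) and sorted GMP (6.29 to 6.45). Cd177 was above the array median on all 26 arrays, and whether a floor of its signal limits the difference was not tested. Mmp8 fell by 1.99 ± 0.45 (adjusted p = 0.0042), from 11.05, 11.38 and 10.42 to 9.74, 9.90, 7.30 and 8.91. Line F6-6, which was high for Ngp with dox, was the lowest for Mmp8, and with the spread taken from these 2 groups alone Mmp8 was not called (adjusted p = 0.0535). Mmp9 gave 5.10, 5.05 and 5.23 without dox and 4.97, 5.07, 5.13 and 4.74 with dox, a difference of -0.15 ± 0.12 (adjusted p = 0.579) at a dim signal.

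Apart from Mmp9, the S100 pair had the smallest differences. S100a9 fell by 1.45 ± 0.36 (adjusted p = 0.00898), from 12.27, 12.27 and 12.40 to 10.61, 10.75, 11.28 and 10.81. S100a8 gave 11.97, 12.07 and 12.08 without dox and 10.92, 11.04, 11.29 and 11.17 with dox. The groups did not overlap, but the difference of -0.93 ± 0.38 was not called (95% interval -1.72 to -0.15, adjusted p = 0.134). The fit shares 1 spread over all groups, and S100a8 varied most among sorted LT-HSC (SD 1.17, against 0.06 and 0.16 in these groups). With the spread of the 2 groups alone it was called (adjusted p = 0.000724). Array maxima were 12.96 to 13.08, so both genes lay near the top of the scale without dox, and whether that narrows their differences was not tested.

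**Figure D3:**
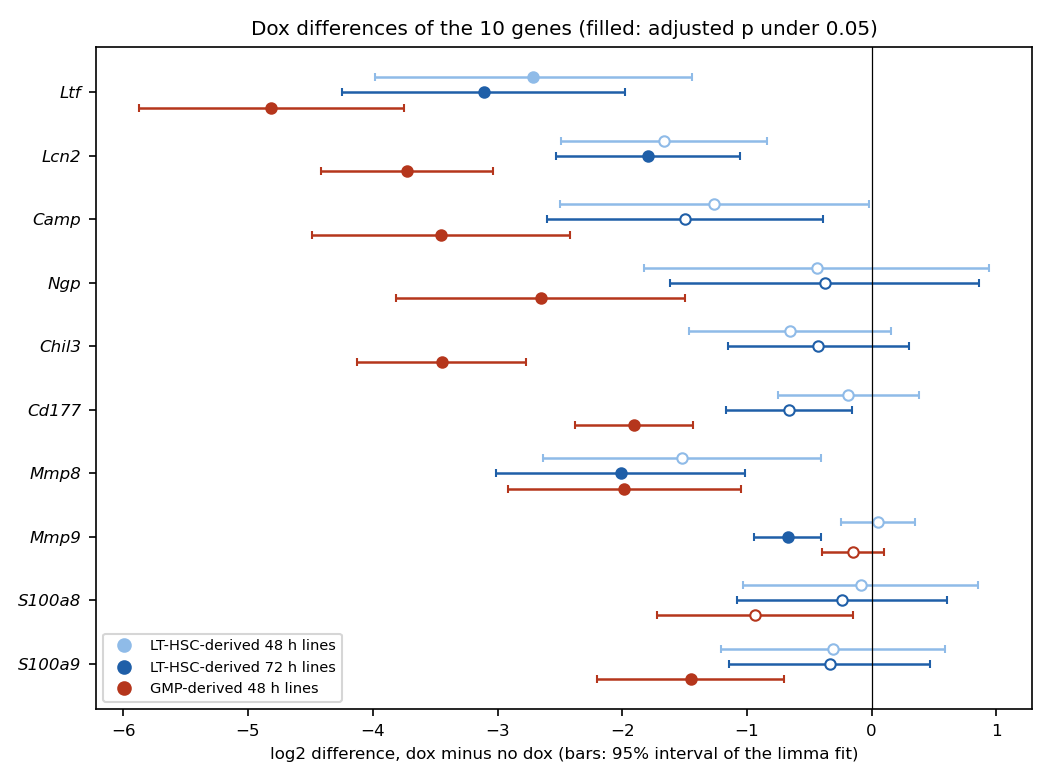
Log2 difference between cultures with and without dox (x axis) for each gene (y axis), in LT-HSC-derived lines at 48 h and 72 h and in GMP-derived lines at 48 h; bars are 95% intervals of the limma fit and filled points have an adjusted p under 0.05. GMP-derived lines have 8 filled points, all below 0, LT-HSC-derived lines have 1 at 48 h and 4 at 72 h.

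In LT-HSC-derived lines the same comparison gave fewer calls. With dox at 48 h, 1 of 10 members fell (Ltf) where 0.286% of all genes were called lower, and at 72 h, 4 of 10 fell (Ltf, Lcn2, Mmp8 and Mmp9) where 3.72% were. No member was called higher at either time. The median difference of the 10 was -0.55 at 48 h and -0.67 at 72 h, against 0.00 and -0.03 over all genes. At 48 h line B6-1, the lowest line for 9 of the 10 genes, entered only the group without dox. Within lines B6-2 and B6-3 the medians at 48 h were -0.81 and -0.60. The same lines were grown with and without dox, and with line as a block 4 members fell at 48 h and 6 at 72 h. With that block 298 genes in all were called at 48 h, in either direction, against 88 without it. The number of all genes at 72 h with the block is not given here. For monocyte and macrophage markers, at 48 h 1 of 14 was called lower (median -0.67), with list means of 7.04 to 7.15 with dox and 7.71 to 7.99 without. At 72 h 8 of 14 were, with list means of 7.09 to 7.40 with dox and 8.02 to 8.52 without. Their part was not tested.

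Ltf gave 9.57, 9.54 and 7.24 without dox at 48 h in lines B6-2, B6-3 and B6-1, and 6.33 and 5.80 with dox in B6-2 and B6-3. At 72 h it gave 10.80, 10.34 and 7.92 without dox and 6.97, 6.81 and 5.94 with dox in the 3 lines. Line B6-1 was the lowest in each group it entered, and no array with dox reached one without it. Ltf fell by 2.71 ± 0.61 at 48 h (adjusted p = 0.0483) and by 3.11 ± 0.55 at 72 h (adjusted p = 0.00087). The 48 h call ended when 1 array was left out, for line B6-2 with dox (adjusted p = 0.267) or without (0.176) and line B6-3 with dox (0.42) or without (0.228). It also ended with the spread of these 2 groups alone (adjusted p = 0.291).

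Lcn2 gave 8.62, 9.16 and 8.04 without dox and 6.91 and 6.97 with dox at 48 h, and 10.15, 9.65 and 8.13 against 7.74, 7.89 and 6.94 at 72 h. It was not called at 48 h (-1.67 ± 0.40, adjusted p = 0.0696) and fell by 1.79 ± 0.36 at 72 h (adjusted p = 0.00258). With line as a block it fell by 2.06 at 48 h (adjusted p = 0.000205). Camp differed widely between lines, with 9.72, 8.94 and 7.74 without dox and 8.18 and 6.89 with dox at 48 h, and 10.56, 9.52 and 7.88 against 8.56, 7.83 and 7.07 at 72 h. Its groups overlapped at both times and it was not called, at -1.26 ± 0.60 (adjusted p = 0.672) and -1.50 ± 0.53 (adjusted p = 0.0963). Within lines Camp was lower with dox in every pair, and with line as a block it fell by 1.80 (adjusted p = 0.00189) and by 1.50 (adjusted p = 0.000564).

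Mmp8 gave 10.62, 11.11 and 10.13 without dox and 9.05 and 9.15 with dox at 48 h, and 11.44, 11.53 and 10.83 against 9.58, 9.40 and 8.80 at 72 h. Arrays did not overlap at either time. It fell by 2.01 ± 0.48 at 72 h (adjusted p = 0.0107), a call that ended without line B6-1 with dox (adjusted p = 0.0613). At 48 h it was not called (-1.52 ± 0.54, adjusted p = 0.375), but with line as a block it fell by 1.75 (adjusted p = 0.0251). Mmp9 fell by 0.67 ± 0.13 at 72 h (adjusted p = 0.00174), from 6.06, 5.64 and 5.46 to 5.09, 5.17 and 4.88. At 48 h its difference was 0.05 ± 0.14, and 5.14, 4.90 and 4.99 without dox stood beside 5.11 and 5.02 with dox. With the spread of the 2 groups alone, the calls at 72 h of Lcn2 (adjusted p = 0.0822) and Mmp9 (adjusted p = 0.0563) ended.

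Cd177 was not called at 48 h (-0.19 ± 0.27) or at 72 h (-0.66 ± 0.24, adjusted p = 0.11), but with line as a block it fell by 0.66 at 72 h (adjusted p = 0.012). Without the array of line B6-1 in dox-free medium at 72 h, Camp (-2.22, adjusted p = 0.00773) and Cd177 (-0.96, adjusted p = 0.0161) were called too. Without line B6-2 in dox-free medium at 72 h they were further from a call, Camp at -0.88 (adjusted p = 0.412) and Cd177 at -0.31 (adjusted p = 0.5). The values of Cd177 at 72 h were 7.57, 6.75 and 6.28 without dox and 6.41, 6.17 and 6.03 with dox. The remaining genes stayed bright with dox and were not called. Chil3 had means of 10.59 and 9.94 without and with dox at 48 h, and 10.68 and 10.25 at 72 h. Ngp had means of 11.08 and 10.64 at 48 h, and 10.88 and 10.50 at 72 h. For S100a8 the difference was -0.09 (95% interval -1.03 to 0.85) at 48 h and -0.24 (-1.08 to 0.60) at 72 h, and for S100a9 it was -0.31 (-1.21 to 0.59) and -0.33 (-1.14 to 0.47).

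Pairs of the same line with and without dox showed the direction in each line. In GMP-derived lines all 10 genes were lower with dox in B6-2 and F6-6 and 9 of 10 in B6-3, where Mmp9 differed by 0.02. In LT-HSC-derived lines at 48 h, 10 of 10 were lower in B6-2 and 9 of 10 in B6-3 (Mmp9 0.11), and at 72 h all 10 were lower in each of 3 lines. Medians over the 10 genes were -2.23, -2.29 and -2.77 in GMP-derived lines B6-2, B6-3 and F6-6. In LT-HSC-derived lines they were -0.81 and -0.60 at 48 h in B6-2 and B6-3, and -1.13, -0.53 and -0.48 at 72 h in B6-2, B6-3 and B6-1.

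**Figure D4:**
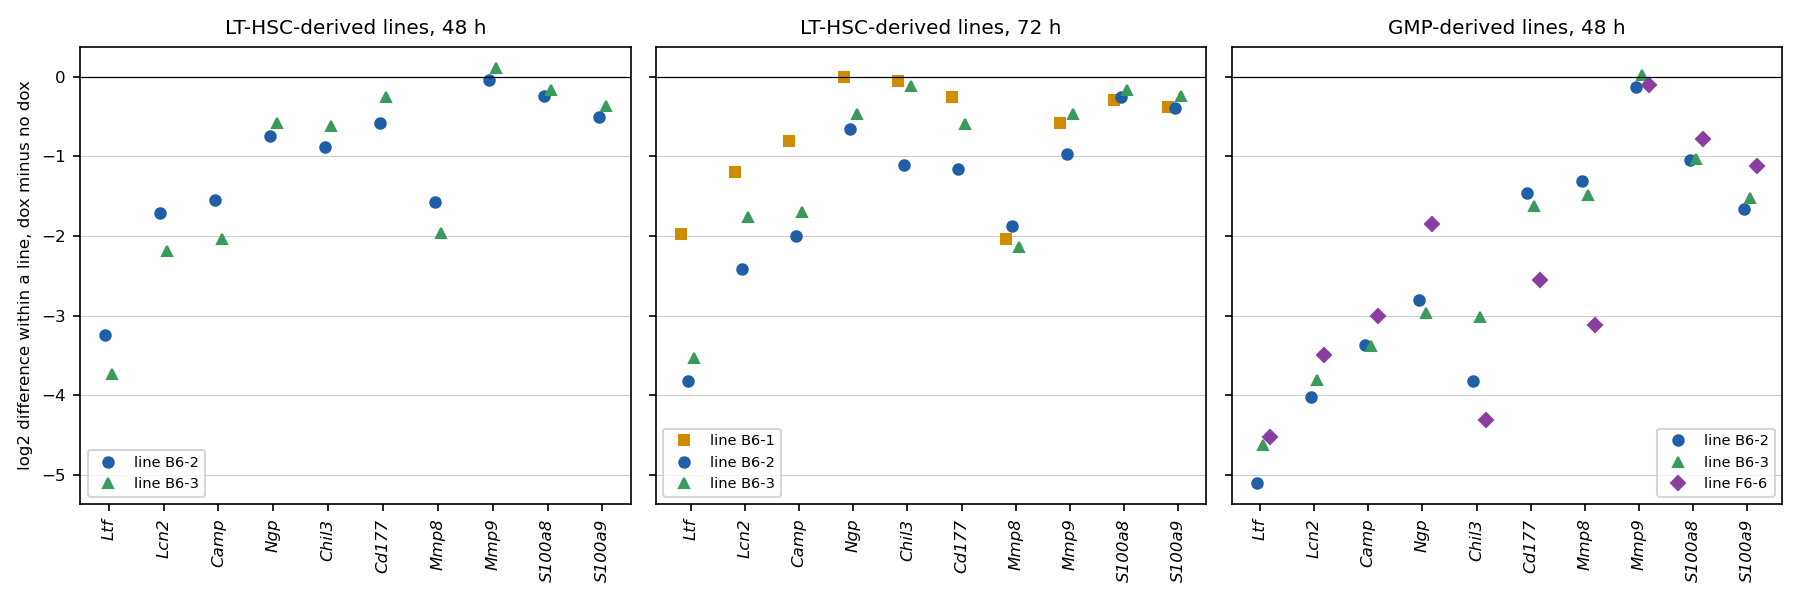
Log2 difference within a line, with dox minus without (y axis), for each gene (x axis), in LT-HSC-derived lines at 48 h and 72 h and GMP-derived lines at 48 h; each point is 1 line. Ltf lies between -4.53 and -5.10 in GMP-derived lines and between -1.98 and -3.83 in LT-HSC-derived lines at 72 h, and Mmp9 rises above 0 only to 0.11 and 0.02.

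Whether dox acted differently by origin was tested at 48 h as the difference between the 2 dox effects. All 10 genes were more negative in GMP-derived lines, and 2 of 10 were called, Chil3 and Cd177, where 0.161% of all genes were called in that direction. For Chil3 the effects differed by -2.79 ± 0.51 log2 (adjusted p = 0.014), between -3.45 in GMP-derived and -0.65 in LT-HSC-derived lines. With dox, Chil3 was 7.19, 8.03, 6.68 and 8.36 in GMP-derived lines against 9.66 and 10.23 in LT-HSC-derived lines. Its call ended without LT-HSC-derived line B6-3 with dox (adjusted p = 0.169) and with the spread of the 4 groups alone (adjusted p = 0.0615). For Cd177 the effects differed by -1.72 ± 0.36 (adjusted p = 0.0377), and 8 of the 12 fits that left out 1 array of these groups ended that call (adjusted p 0.0603 to 0.196), all but those without LT-HSC-derived line B6-2 in dox-free medium, GMP-derived line F6-6 with dox, and GMP-derived lines B6-2 and B6-3 in dox-free medium. It also ended with the spread of the 4 groups alone (adjusted p = 0.106). The other differences were not called: -2.21 for Ngp, -2.20 for Camp, -2.10 for Ltf, -2.06 for Lcn2, -1.14 for S100a9, -0.85 for S100a8, -0.46 for Mmp8 and -0.20 for Mmp9. Lcn2 was called with line as a block (-1.72, adjusted p = 0.0304), with array weights (adjusted p = 0.0368) and with the spread of the 4 groups alone (adjusted p = 0.0344). LT-HSC-derived line B6-1 entered only the dox-free group at 48 h, and without it the difference was -1.33 for Ltf, -1.66 for Camp and -1.78 for Lcn2. With line as a block Ltf was at -1.38 (adjusted p = 0.255), Camp at -1.45 (adjusted p = 0.132) and Ngp at -1.82 (adjusted p = 0.612).

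The groups of each origin were also set side by side. Without dox at 48 h, 2 of 10 members were higher in GMP-derived than in LT-HSC-derived lines, Camp by 2.21 ± 0.53 (adjusted p = 0.0115) and Cd177 by 1.64 ± 0.24 (adjusted p = 0.00012), where 3.28% of all genes were. The Camp call ended without LT-HSC-derived line B6-1 without dox (adjusted p = 0.106). Lcn2 missed the threshold at 1.16 ± 0.36 (adjusted p = 0.0512), and passed it in 7 of 14 alternative fits, with adjusted p between 0.0249 and 0.276 over the 14. Without LT-HSC-derived line B6-3 it was 1.44 (adjusted p = 0.0289) and without line B6-1 0.88 (adjusted p = 0.276). With dox, 1 of 10 was lower in GMP-derived lines, Chil3 (-2.38 ± 0.37, adjusted p = 0.000408), where 1.17% of all genes were. Mast cell and basophil markers differed by origin too: 6 of 9 were lower in GMP-derived lines without dox (median -1.97) and 1 of 9 with dox (-1.14), beside 2 of 6 (-0.67) and 1 of 6 (-0.87) eosinophil markers and none of 14 monocyte markers. Their part was not tested. These comparisons share their arrays with the dox comparisons.

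Time was compared in LT-HSC-derived lines alone. Without dox, 1 of 10 members was higher at 72 h than at 48 h, where 0.120% of all genes were: Mmp9 rose by 0.71 ± 0.13 (adjusted p = 0.0257), and by 0.92, 0.74 and 0.47 within lines B6-2, B6-3 and B6-1. Its 3 arrays at 72 h lay above every other array of the series, but 1 of them alone lay above the array median. The call ended without any 1 of the 3 lines at 48 h or line B6-2 at 72 h (adjusted p = 0.0621 to 0.121) and with the spread of the 2 groups alone (adjusted p = 0.321). With dox, limma called 0 of 10 members and 0 genes in all (0%), and 0 members and 450 genes had an unadjusted p under 0.05. For the difference in dox effect between the times it called 0 members and 0 genes (0%), with 1 member, Mmp9 (-0.72 ± 0.19), and 1132 genes at an unadjusted p under 0.05. Ltf was higher at 72 h by 0.64 to 1.23 log2 in all 5 pairs of a line at both times, and was not called without dox (0.91 ± 0.55) or with it (0.51 ± 0.61). Lcn2 (0.09 to 1.54), Camp (0.14 to 0.93) and Mmp8 (0.25 to 0.82) were higher in all 5 pairs too and were not called. No other member was higher in all 5.

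Lines were then compared with the sorted cells of their origin, at 48 h. In GMP-derived lines without dox 9 of 10 members, all but Mmp9, were higher than in sorted GMP, where 10.8% of all genes were. The differences ran from 1.77 ± 0.23 for Cd177 (adjusted p = 2.63e-06) to 5.53 ± 0.56 for Ngp (adjusted p = 8.06e-08), with 4.74 for Camp, 4.50 for Ltf, 3.99 for Mmp8, 3.77 for Lcn2, 3.37 for S100a9, 2.68 for Chil3 and 2.67 for S100a8. With dox 4 of 10 were higher, Ngp (2.88 ± 0.52), Mmp8 (2.01 ± 0.42), S100a9 (1.92 ± 0.34) and S100a8 (1.74 ± 0.35), where 10% of all genes (1998) were. Ltf (-0.32), Lcn2 (0.05), Cd177 (-0.13) and Chil3 (-0.76, adjusted p = 0.083) were not called, and Camp missed the threshold at 1.28 ± 0.46 (adjusted p = 0.0533). Without sorted GMP replicate 2 Camp was called at 1.50 (adjusted p = 0.0382), and the other calls of both comparisons held. Camp was also called without GMP-derived line B6-1 (adjusted p = 0.0409). Chil3 was called lower without that line (-1.03, adjusted p = 0.0183) or without sorted GMP replicate 1 (-0.97, adjusted p = 0.037). Of 14 monocyte and macrophage markers 5 were higher and 4 lower than in sorted GMP without dox, and 8 were lower with dox, and their part was not tested.

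In LT-HSC-derived lines without dox 8 of 10 members, all but Cd177 and Mmp9, were higher than in sorted LT-HSC, where 17.1% of all genes were. Mmp8 was higher by 4.93 ± 0.45 (adjusted p = 3.6e-09), Chil3 by 4.72 ± 0.33 (adjusted p = 2.9e-11), Ngp by 3.88, S100a8 by 3.73, Lcn2 by 3.05, Ltf by 2.80, S100a9 by 2.59 and Camp by 2.26. With dox 6 of 10 were higher, where 14.6% of all genes were: Chil3 by 4.06, S100a8 by 3.64, Ngp by 3.44, Mmp8 by 3.41, S100a9 by 2.28 and Lcn2 by 1.38 ± 0.38 (adjusted p = 0.00667). Ltf, at 0.09 ± 0.58, and Camp, at 1.00 ± 0.57, were not called with dox. Camp rested on 2 arrays that differed, at 0.36 without line B6-2 (adjusted p = 0.822) and 1.64 without line B6-3 (adjusted p = 0.112), and it was called with the spread of the 2 groups alone (adjusted p = 0.0274). The Lcn2 call ended without line B6-3 with dox (adjusted p = 0.0562). Markers of other myeloid cells were higher as well: without dox 12 of 14 monocyte and macrophage markers (median 2.02), 5 of 9 mast cell and basophil markers (1.96) and 4 of 6 eosinophil markers (0.89), and with dox 9 of 14 (1.25), 4 of 9 (0.64) and 3 of 6 (0.79). Both without and with dox, 1 monocyte and macrophage marker and 1 mast cell and basophil marker were called lower. The part of these lists was not tested.

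Other genes of the neutrophil programme were taken as lists. Of 29 measured granule and secreted neutrophil genes outside the 10, 21 fell with dox in GMP-derived lines and none rose (list median -1.02), among them Stfa3, a stefin (-3.42 ± 1.01, adjusted p = 0.0279), Ceacam10 (-3.39), Stfa2 (-3.23) and the ficolin gene Fcnb (-2.71). Of 22 surface receptors and other genes of mature neutrophils 15 fell (median -0.95), with the decoy receptor gene Il1r2 at -3.42 ± 0.27 (adjusted p = 1.24e-08), the Gr-1 antigen gene Ly6g at -2.53, the chemokine receptor gene Cxcr2 at -2.19 and Clec4d at -1.61. Of 12 primary granule genes 3 fell and none rose (median -0.12), Ctsc, the dipeptidyl peptidase that activates granule proteases (-1.30 ± 0.22, adjusted p = 0.00028), Prss57 (-0.82) and Serpinb1a (-0.38). The median over all genes was 0.01, and 5.18% of all genes were called lower. In LT-HSC-derived lines at 72 h, 10 of the 29 and 12 of the 22 fell, and of the 12 primary granule genes 1 fell and 2 rose. Of all genes 3.72% were called lower there. In sorted GMP over LT-HSC all 12 primary granule genes rose (median 3.02), with cathepsin G (Ctsg) at 5.69, Ms4a3 at 5.54 and neutrophil elastase (Elane) at 4.81, beside 11 of the 29 (median 0.18) and 11 of the 22 (median 0.49). Among those were the haptoglobin gene Hp (4.36), Cybb, the catalytic subunit of the phagocyte oxidase (3.92), and Slpi (2.50), and on the other list Trem3 (3.73), Clec4e (2.14) and Mcemp1 (1.89). In sorted GMP over LT-HSC, 16.8% of all genes were called higher.

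Relatives of the members moved in part, where 5.18% of all genes were called lower with dox in GMP-derived lines. A list of 16 genes with S100 names also holds S100pbp, which encodes a binding protein of S100P and is no S100 gene (0.07 ± 0.12, not called). Of the 16, 5 fell with dox in GMP-derived lines, with S100a6 at -2.46 ± 0.34 (adjusted p = 2.52e-05), S100a4 at -2.24, S100a10 at -1.34 and S100a13 at -0.34. Of 14 other matrix metalloproteinases and their inhibitors 3 fell, the macrophage elastase gene Mmp12 (-2.45 ± 0.46, adjusted p = 0.000779), Timp2 (-0.81) and Mmp19 (-0.62). Of 7 receptors that bind member proteins 2 fell and 1 rose: Lrp1, a lactoferrin receptor, at -1.07 ± 0.24 (adjusted p = 0.00343), Tlr4, a receptor of S100A8, at -0.62, and Pecam1, the partner of CD177, at 0.73.

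Of 16 regulators of granulocyte genes 8 fell and 1 rose with dox in GMP-derived lines (median -0.24), where 5.18% of all genes were called lower. Cebpe, which encodes C/EBP epsilon, fell by 0.82 ± 0.12 (adjusted p = 5.67e-05), from a mean of 8.37 to 7.55, and was not called in LT-HSC-derived lines at 48 h (0.00 ± 0.14) or 72 h (-0.22 ± 0.13). The difference between the origins at 48 h, -0.82 ± 0.19, was not called (adjusted p = 0.0691). Spi1, which encodes PU.1, fell by 0.47 ± 0.13 (adjusted p = 0.0184) in GMP-derived lines and by 0.57 ± 0.14 (adjusted p = 0.0123) in LT-HSC-derived lines at 72 h. Cebpa (0.11 ± 0.16) and Gfi1 (0.01 ± 0.09) were not called in GMP-derived lines. Ets1 fell by 1.34 ± 0.13 (adjusted p = 2.94e-07) and the retinoic acid receptor gene Rara fell by 0.99, while Myb, a factor of immature cells, rose by 0.66 ± 0.12 (adjusted p = 0.000665).

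The members varied together over the arrays, as a description that carries the groups they share. Over 26 arrays the median r of the 45 pairs was 0.75 (0.14 to 0.99), and after group means were removed it was 0.52 (0.07 to 0.95). Ngp and S100a9 were closest (0.99, and 0.95 within groups), followed by Ltf and Lcn2 (0.95 and 0.90) and by S100a8 and S100a9 (0.92 and 0.91). Mmp9 was least like the others, with a median r of 0.28. Among 2526 other genes whose group means spanned at least 1 log2, Wfdc21 was most like the mean of the members (r = 0.96 over 26 arrays), followed by Il1f9 (0.96), Cd300lf (0.94), Sqor (0.93), Ly6g (0.92), Tmem154 (0.92), Vcan (0.92) and Actn1 (0.92). The genes most like a single member were C5ar1 and Chil1 for Ltf (0.93 and 0.93), Wfdc21 and Il1r2 for Lcn2 (0.97 and 0.95), Stfa2 and Slco4c1 for Camp (0.94 and 0.94), and Thbs1 and Dmxl2 for both Ngp (0.92 and 0.92) and S100a9 (0.93 and 0.93). For Chil3 they were Clec4b2 and Ccl6 (0.94 and 0.93), for Cd177 Olfm4 and Itgb2l (0.95 and 0.94), for Mmp8 Rnd3 and Emilin2 (0.97 and 0.96), for S100a8 Itgam and Wfdc17 (0.96 and 0.94), and for Mmp9 Jaml and Retnlg (0.75 and 0.71).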

How the data were processed

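Expression was measured on 26 Affymetrix gene arrays. Per the labels' protocols, total RNA was extracted with a small-sample kit, amplified to cDNA and labelled with biotin. The authors deposited 1 log2 signal per probe set and array, and limma and R 3.1.1 were used per the submitters' processing notes. The handling of background, summarisation and normalization, and the build, are not stated in the sources used. Precision is limited by the number of arrays.

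Of 34760 probe sets, 21640 had 1 symbol, 1321 several and 11799 none. Per symbol the probe set with the highest mean was kept (19937 genes). Group means over all arrays came from lmFit, contrasts.fit and eBayes of limma 3.58.1, run in R 4.3.3. From them 12 pairs of groups were compared, and 2 further contrasts set dox effects against each other. The tests are 2-sided, and p-values were adjusted by Benjamini-Hochberg over all genes. Errors are standard errors of the fit, and the fit was tested on simulated data. The same line names occur with and without dox and at both times within an origin, and so pair these samples. Deviations of a line's arrays from their group means correlated at 0.29 to 0.40 in GMP-derived lines, 0.21 to 0.34 in LT-HSC-derived lines at 48 h and -0.06 to 0.32 at 72 h. The names B6-1, B6-2 and B6-3 occur in both origins, and the labels do not say what lines of 1 name share. For B6-2 and B6-3 at 48 h such deviations correlated between origins at 0.01 to 0.17. The main fit did not pair the origins. Alternatives were quantile normalization, median centring, a filter on dim genes, the mean of a gene's probe sets, a trended prior, array weights, the compared groups alone, a block for line or replicate number, and leaving out each array.

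Named genes are the members, up to 4 (dox, GMP-derived lines) and 3 (sorted cells) called genes of each list with the largest differences, Cebpe, Cebpa, Gfi1 and Spi1, and the genes most like the members. Chil4 was named beside Chil3 after its values were seen. Members and lists were chosen with earlier results of these data known. RefSeq promoter windows were matched by symbol.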

Additional observations from a re-analysis of the deposited data

Results flagged for a closer look

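In 30 sets of 4 arrays (each of the 10 genes in sorted LT-HSC, sorted GMP and GMP-derived lines with dox), 5 had 1 array beyond Dixon's 95% limit. Chance gives this in about 1 of 20 for a single set. The sets share arrays and hold genes that varied together, so they are not 30 independent trials. Sorted GMP replicate 2 was far above the others for Ltf (6.58, next 5.64), Lcn2 (6.66, next 5.82) and Cd177 (6.45, next 6.30). GMP-derived line F6-6 with dox was high for Ngp (9.91, next 8.82), and sorted LT-HSC replicate 2 was high for Mmp9 (5.25, next 5.09). By a test of the difference itself, the dox effect at 48 h differed between GMP-derived and LT-HSC-derived lines for Chil3 (-2.79 log2, adjusted p = 0.014) and Cd177 (-1.72 log2, adjusted p = 0.0377) by limma. The call ended in 2 of 20 alternative fits for Chil3 (adjusted p up to 0.169) and in 9 of 20 for Cd177 (up to 0.196), and both ended with the spread of the 4 groups alone.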

How the results depend on the processing

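Of 2106 values of single members under the alternatives, 2041 kept their direction and side of the threshold or were uncalled on both sides, 30 lost a call, 35 gained one and 0 called values reversed. In GMP-derived lines 8 members were lower with dox under every fit that left out 1 array. With line as a replicate block, members lower with dox in LT-HSC-derived lines at 48 h went from 1 to 4 (genes called from 88 to 298), and no member's call was lost in the other comparisons so blocked. Array weights gave 2 members and 145 genes there, and the compared groups alone gave 0 and 54. Restricting the fit to the compared groups left 2 members lower at 72 h (647 genes against 1425, with 2241 under array weights), 1 in the contrast of origins (21 genes against 46, 87 with array weights, 102 with the block), 2 lower in GMP-derived over LT-HSC-derived lines with dox, and 595 genes against 1355 without dox. Mmp9 at 72 h over 48 h without dox lost its call (0 members) under that fit. The dim filter kept 9 members and removed Mmp9, so Mmp9 was not tested under it. Genes called at 72 h over 48 h without dox went from 36 to 21 with median centring, 335 with array weights, 0 with the groups alone and 248 with the block. Array weights also put 1 member, Chil3, lower in GMP-derived lines with dox than in sorted GMP. The contrast of times gave 1 gene with the groups alone and 1 with the block, and 72 h over 48 h with dox gave 2 with the block.

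Leaving out 1 array gave 0 to 2 members lower in sorted GMP, 0 to 1 and 3 to 6 lower with dox in LT-HSC-derived lines at 48 h and 72 h, and 0 to 2 in the contrast of origins. It gave 0 to 1 higher at 72 h without dox, 1 to 3 higher in GMP-derived lines without dox over LT-HSC-derived, and 0 to 1 lower in GMP-derived lines with dox over sorted GMP. Genes called ranged from 10 to 87 and 859 to 1329 for dox in LT-HSC-derived lines at 48 h and 72 h, 1224 to 2115 in GMP-derived lines (2179 with all arrays), 8 to 55 in the contrast of origins, 0 to 2 in that of times, 0 to 57 for time without dox, and 743 to 1149 and 110 to 355 between origins without and with dox (421 with all arrays). The labels do not say whether sorted LT-HSC and sorted GMP of the same replicate number belong together. Their deviations correlated at r 0.02 to 0.06, which does not settle it, since a pair of the same line at 72 h gave -0.06. A block on these numbers changed no member's call between sorted cells. A block on numbers in the other comparisons added 2 calls, Lcn2 between origins without dox (1.16, adjusted p = 0.0358 by limma) and Camp in GMP-derived lines with dox over sorted GMP (1.28, adjusted p = 0.0456). Signal over background was not analysed, which limits Mmp9 most.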
